A study of Mus musculus with 16 samples.

Results

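The respiratory chain genes described here were the protein-coding genes of the nuclear genome whose symbols begin with Nduf (followed by a, b, c, s or v and a digit), Sdh (a to d), Uqcr, Cox4 to Cox8 or Atp5, together with the 13 protein-coding genes of the mitochondrial genome. This symbol rule, which uses no measured value, gave 85 nuclear gene identifiers with 84 symbols (37 in complex I, 4 in complex II, 8 in complex III, 18 in complex IV and 18 in complex V) and 13 mitochondrial genes, 98 of 54123 annotated genes in all. Complexes were assigned by symbol, so that Ndufa4, which is known as a subunit associated with complex IV, was counted under complex I. After the filter on low counts 77 nuclear and 13 mitochondrial members were among the 15289 genes tested. The 8 nuclear identifiers not tested were Ndufa4l2, Cox4i2, Cox7b2, Cox8c and a second identifier of Atp5o, each at 0 counts in every library (where 0 counts allow up to 3), and Cox6a2, Cox6b2 and Cox8b, which reached at most 2, 7 and 3 counts in any library.

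RNA-seq was carried out on mouse colon organoids, which are cultures of colon epithelium grown in a gel, in 16 libraries that form 8 groups of 2. Organoids came from the proximal or the distal colon of 2 female mice aged 8 weeks that were heterozygous for a Cre-inducible BrafV600E allele and for a tdTomato reporter allele, so that every group carried both alleles, and the labels of these libraries name no Cre treatment. Organoids were transduced by lentivirus with Cas9 and either a Scramble-sgRNA or a Cdx2-sgRNA, the latter directed at the gene of an intestinal transcription factor, and were selected with blasticidin. The Cdx2-sgRNA organoids were clones grown from single cells with frameshifts in both alleles, whereas the methods describe no such cloning of the Scramble-sgRNA organoids, so that a clone and the loss of Cdx2 cannot be told apart within 1 culture. In month 4 of culture the organoids were kept for 2 days in WENR-plus medium, which holds Wnt3a, EGF, Noggin and R-spondin 1, and then for 3 days either in the same medium or in WENR-minus medium, which lacks those factors and permits differentiation. The replicates of a group came from different mice, but the sources used here do not tie a replicate number to the same mouse across regions or guides. The 2 media were applied to the same cultures.

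The respiratory chain passes electrons from NADH (complex I) and succinate (complex II) through ubiquinone, complex III and cytochrome c to oxygen at complex IV, and ATP synthase (complex V) uses the proton gradient so made. Most subunits are encoded in the nucleus and imported, all those of complex II among them, while the mitochondrial genome encodes core subunits of complexes I, III, IV and V that are transcribed as long polycistronic precursors. Colonocytes are known to oxidise short-chain fatty acids from the gut lumen in their mitochondria.

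The libraries held 12465194 to 18922143 estimated counts (median 16836530). The nuclear members took 0.420 to 0.801% of the counts, the mitochondrial members 1.41 to 2.99% and the 2 mitochondrial rRNAs 15.4 to 28.0%. Cdx2 RNA stood at 177 ± 36.5 CPM (counts scaled to library size, mean ± SD, n = 2) in proximal Scramble-sgRNA organoids in WENR-minus and at 72.4 ± 2.00 CPM in their Cdx2-sgRNA counterparts, and at 134 ± 10.3 and 31.6 ± 2.44 CPM in WENR-plus. The proximal differences passed the test (log2 fold change −1.29, adjusted p = 0.000679, and −2.09, adjusted p = 5.48e-05, edgeR). In distal organoids Cdx2 was at 111 ± 1.69 and 106 ± 28.5 CPM in WENR-minus and at 72.4 ± 6.28 and 56.2 ± 8.52 CPM in WENR-plus, and neither difference passed (adjusted p = 0.876 and 0.857). An RNA level does not report on a frameshift, so the distal values leave the labels unchecked. Summed markers of fibroblasts, immune cells and muscle stayed at or below 1.12, 0.965 and 0.296 CPM in every library, against 2586 to 14644 CPM for the summed epithelial markers, while the summed hepatocyte markers Alb and Apoa1 reached 57.5 to 189 CPM in distal Cdx2-sgRNA organoids and at most 15.3 CPM elsewhere. Because the samples were bulk organoids, fewer cells of a type and less RNA per cell cannot be told apart.

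Copies of the mitochondrial genome within the nuclear genome decide how the reads of mt-Atp6, mt-Co2, mt-Co3, mt-Nd3 and mt-Nd4l can be read. The first 4 of these are set beside their copies for that reason. A stretch of chromosome 1 (GRCm38) carries annotated copies on the minus strand: Gm10925 of mt-Atp6 at chr1:24613974-24614651, Gm28661 of mt-Co2 at chr1:24614885-24615565, Gm28437 of mt-Co3 at chr1:24613189-24613971 and Gm28438 of mt-Nd3 at chr1:24612775-24613119. The first 3 matched their mitochondrial gene at 678 of 678, 681 of 681 and 783 of 783 aligned bases. Gm28438 matched at all but 1 of 345 bases, the exception being T3C, counted from the first base of the mt-Nd3 transcript, with the mitochondrial base first. The first 31 bases of that pair, with the differing base in capitals, read
mt-Nd3: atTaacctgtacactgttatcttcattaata
Gm28438: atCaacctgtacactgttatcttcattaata
The mitochondrial transcripts end with 1 to 3 bases that the annotated copies lack. For mt-Atp6, the member with the largest share of counts on its copy, the last bases read as follows, with the bases missing from the copy in capitals.
mt-Atp6: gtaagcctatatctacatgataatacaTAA
Gm10925: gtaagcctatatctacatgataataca
Of the counts given jointly to a gene and its copy over the 16 libraries, the copy held 96.1% for mt-Atp6, 71.5% for mt-Co2, 52.9% for mt-Co3, 39.4% for mt-Nd3 and 20.7% for mt-Nd4l, but 0.02% for mt-Co1. The level of mt-Atp6, mt-Co2, mt-Co3, mt-Nd3 and mt-Nd4l therefore depends on how the quantification divided near-identical reads. Where a call of theirs is given below, the value with the counts of the copies added is given too. Among the nuclear members, the processed pseudogenes Ndufb4c, Gm10175 and Gm10221 held 68.4%, 55.5% and 31.8% of the counts given jointly to them and Ndufb4, Atp5g2 and Atp5l. They share 19.1%, 37.5% and 4.3% of the 31-base stretches of these members, against 98.1 to 99.9% for the chromosome 1 copies of mt-Atp6, mt-Co2, mt-Co3, mt-Nd3 and mt-Nd4l. Only part of each nuclear member's sequence is thus shared. In the other direction, every 31-base stretch of Ndufb4c and of Gm10221, and 59.9% of those of Gm10175, also occurs in the member. The levels of Ndufb4, Atp5g2 and Atp5l therefore also depend on how the quantification divided shared reads.

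Promoters of nuclear members are shown because many members moved together. Of the 84 nuclear symbols, 66 matched a RefSeq promoter (GRCm38.p6, 250 bases before to 50 after the start), with 71 promoters in all. Both strands were searched for GCATGCGC (core of the NRF1 site), CCGGAAG (an ETS site, as bound by GABP) and AAGATGG (core of the YY1 site). NRF1 and GABP are known regulators of nuclear respiratory genes. GCATGCGC occurred in 10 of 71 member promoters (14.1%, against 2.71% of 32851 promoters of the same length), CCGGAAG in 16 (22.5% against 8.86%) and AAGATGG in 10 (14.1% against 6.34%). Printed 5′ to 3′ on the gene's strand with matches in capitals, the promoters of Sdhb (chr4:140961021-140961320, plus strand), Cox6a1 (chr5:115348909-115349208, minus strand) and Uqcrh (chr4:116075021-116075320, minus strand) hold matches, and that of Ndufa4 (chr6:11907401-11907700, minus strand), the nuclear member above 5 CPM with the largest decrease under the Cdx2-sgRNA in proximal WENR-minus, holds none.
Sdhb: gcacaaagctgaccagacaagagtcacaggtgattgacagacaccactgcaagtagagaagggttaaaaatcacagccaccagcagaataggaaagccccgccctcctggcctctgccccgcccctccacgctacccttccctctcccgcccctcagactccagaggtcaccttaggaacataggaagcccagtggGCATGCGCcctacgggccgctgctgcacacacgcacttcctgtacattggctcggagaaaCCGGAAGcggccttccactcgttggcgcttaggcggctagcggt
Cox6a1: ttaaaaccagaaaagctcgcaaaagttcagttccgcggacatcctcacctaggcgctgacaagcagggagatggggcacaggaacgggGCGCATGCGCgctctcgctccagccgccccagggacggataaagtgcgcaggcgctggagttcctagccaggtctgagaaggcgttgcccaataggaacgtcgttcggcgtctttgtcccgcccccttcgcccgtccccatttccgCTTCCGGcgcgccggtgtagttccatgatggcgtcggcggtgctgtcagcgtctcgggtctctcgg
Uqcrh: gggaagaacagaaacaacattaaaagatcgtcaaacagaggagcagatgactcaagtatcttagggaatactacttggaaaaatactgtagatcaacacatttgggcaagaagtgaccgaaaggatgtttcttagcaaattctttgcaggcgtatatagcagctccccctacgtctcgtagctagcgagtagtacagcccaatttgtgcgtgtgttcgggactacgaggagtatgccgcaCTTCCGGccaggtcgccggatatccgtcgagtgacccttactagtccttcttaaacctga
Ndufa4: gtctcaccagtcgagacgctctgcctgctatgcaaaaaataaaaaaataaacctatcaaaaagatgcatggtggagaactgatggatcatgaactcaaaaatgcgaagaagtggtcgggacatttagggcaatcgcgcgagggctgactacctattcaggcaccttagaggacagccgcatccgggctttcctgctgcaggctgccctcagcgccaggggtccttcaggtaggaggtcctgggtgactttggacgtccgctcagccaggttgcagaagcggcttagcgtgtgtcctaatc
A match is a stretch of letters and not a measured binding site.

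On the TPM scale, which divides by transcript length as well as by library size, the mitochondrial members led. mt-Co1, the catalytic core of complex IV, averaged 13369 TPM over the 16 libraries (6735 to 22693), followed by mt-Atp8 at 7490, mt-Nd1 at 3510 and mt-Co3 at 2749 TPM, while mt-Atp6, from its own counts, was lowest of the 13 at 377 TPM. With the counts of its copy added mt-Atp6 was at 2396 to 6773 CPM, against 26.3 to 362 CPM of its own, so that its place and those of the other members with copies are not settled. Among nuclear members Atp5b, the catalytic beta subunit of ATP synthase, was highest at 1307 TPM (887 to 2140). Among the other nuclear members of complex V, Atp5a1 at 461 and Atp5c1 at 340 TPM came next. In complex I the highest were Ndufc1 (277 TPM), Ndufv2 (270 TPM) and Ndufs4 (247 TPM), and the lowest of those tested Ndufb3 (13.1 TPM), Ndufa13 (20.8 TPM) and Ndufb4 (25.8 TPM). The place of Ndufb4 is from its own counts and is not settled, because it shares reads with Ndufb4c. The subunits of complex II ran from Sdha, the flavoprotein that oxidizes succinate, at 137 TPM through Sdhd at 129 and Sdhb at 91.3 to Sdhc at 32.8 TPM. Uqcrb (482 TPM), Uqcrq (463 TPM) and Uqcrh (311 TPM) led complex III, where Uqcr11 was lowest of those tested at 85.4 TPM. In complex IV Cox4i1 (471 TPM), Cox6c (437 TPM) and Cox7b (425 TPM) led.

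Several complex IV and V subunits exist in tissue-specific forms, and the organoids used mainly the forms known from most tissues. Cox4i1, Cox6a1 (144 TPM), Cox6b1 (293 TPM) and Cox8a (332 TPM) were expressed, whereas their counterparts Cox4i2, Cox6a2, Cox6b2, Cox8b and Cox8c were at 0 or stayed below the filter, as was Ndufa4l2. Cox7a2 averaged 131 TPM and Cox7a2l, which takes part in joining complexes III and IV, 192 TPM, against 28.3 TPM for Cox7a1, the form known from heart and muscle. Of the 3 genes for subunit c of ATP synthase, which encode the same mature protein, Atp5g3 stood at 155 TPM, Atp5g1 at 83.0 TPM and Atp5g2 at 20.7 TPM. The value of Atp5g2 leaves out the counts given to Gm10175.

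Setting Cdx2-sgRNA against Scramble-sgRNA cultures addresses the effect of Cdx2 loss in each region and medium. In proximal organoids in WENR-minus the nuclear members were lower almost throughout. Of 77 tested, 60 fell and 0 rose, against 18.3% of all genes tested that fell and 12.7% that rose in the same comparison, and the median log2 fold change of the 77 was −0.957. Every tested member of complex III (8 of 8, median −1.16) and of complex IV (12 of 12, median −1.24) fell, as did 25 of 36 in complex I (median −0.846), 3 of 4 in complex II (median −0.856) and 12 of 17 in complex V (median −0.75). The count of 63 called members, mitochondrial ones included, became 41 without the first proximal Scramble-sgRNA replicate in WENR-minus and 41 when these 4 libraries were fitted alone.

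**Figure D1:**
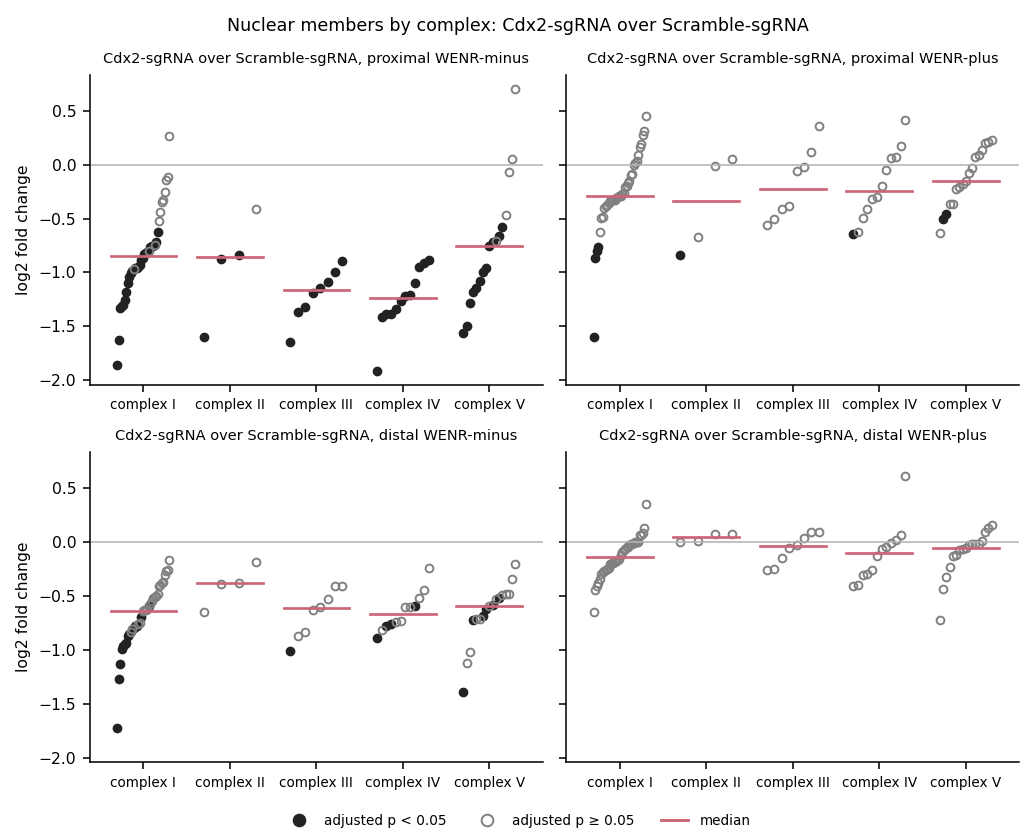
Log2 fold change of each tested nuclear member, Cdx2-sgRNA over Scramble-sgRNA, by complex (I to V on the x axis) in the 4 combinations of region and medium, where each point is a gene, filled if its adjusted p was under 0.05, and each line the median of a complex. In proximal WENR-minus most points lie below 0 (median −0.957), in distal WENR-minus all lie below 0 (median −0.63) and in WENR-plus the medians are −0.23 (proximal) and −0.07 (distal).

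Ndufa4 (ENSMUSG00000029632; chr6:11900292-11907497, minus strand) stood at 8.92 and 9.28 CPM in the proximal Scramble-sgRNA libraries in WENR-minus and at 1.86 and 3.12 CPM in the Cdx2-sgRNA ones (log2 fold change −1.86, SE 0.254, adjusted p = 0.000296, edgeR). Uqcr10, a small subunit of complex III, was at 52.4 and 40.0 CPM against 14.995 and 14.5 CPM (log2 fold change −1.65, SE 0.21, adjusted p = 0.00019). For both genes the 2 groups did not overlap. Sdhb, the iron-sulfur subunit of complex II, was at 92.3 and 84.5 CPM against 36.7 and 21.7 CPM (log2 fold change −1.60, SE 0.311, adjusted p = 0.00273). Cox4i1, the regulatory subunit 4 of complex IV, was at 186 and 190 CPM against 84.9 and 71.2 CPM (log2 fold change −1.27, SE 0.151, adjusted p = 0.00012). Cox7a2 went from 59.4 and 50.8 CPM to 23.4 and 18.03 CPM, and Cox7a1, under 5 CPM in all 4 libraries, from 4.96 and 2.66 CPM to 0.594 and 1.38 CPM (log2 fold change −1.91, SE 0.53, adjusted p = 0.0185). In complex V Atp5b went from 1206 and 1061 CPM to 570 and 501 CPM. In each of these the Cdx2-sgRNA libraries were the lower ones. The 3 tested members with a positive estimate were Atp5k (log2 fold change 0.05, adjusted p = 0.942), Ndufb7 (0.26, adjusted p = 0.63) and Atp5j (0.70, adjusted p = 0.179), a subunit of the stalk of ATP synthase whose Cdx2-sgRNA replicates were far apart at 25.02 and 63.3 CPM.

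**Figure D2:**
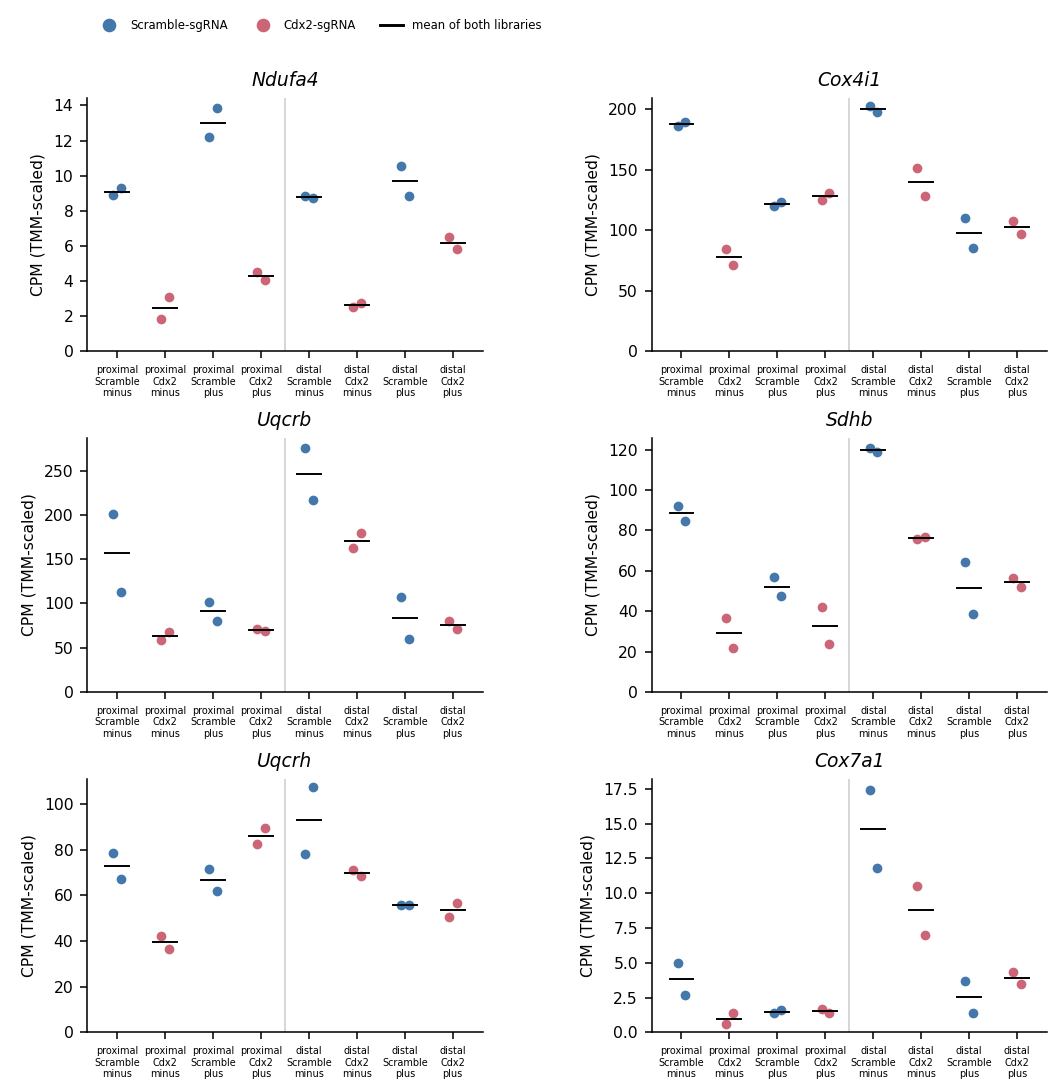
CPM of Ndufa4, Cox4i1, Uqcrb, Sdhb, Uqcrh and Cox7a1 in each of the 16 libraries, by group, where each point is a library and the bar is the mean of 2. Cox4i1 stands at 186 and 190 CPM in proximal Scramble-sgRNA WENR-minus and at 84.9 and 71.2 CPM in the matching Cdx2-sgRNA libraries, and Uqcrb falls from WENR-minus to WENR-plus in distal organoids.

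Beside these decreases, markers of differentiated cells differed in the same libraries. Summed colonocyte markers were at 6089 to 8962 CPM in proximal Scramble-sgRNA organoids in WENR-minus and at 18.2 to 28.1 CPM in Cdx2-sgRNA ones, and summed goblet cell markers at 4736 to 5839 CPM and 44.3 to 47.8 CPM. Summed proliferation markers were at 299 to 499 CPM and 606 to 725 CPM, though Pcna, 1 of the 4 summed, went the other way (means 126 and 80.9 CPM). Their part in the result was not tested.

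In WENR-plus the proximal difference covered fewer nuclear members. Of 77, 8 fell and 0 rose (median −0.23), against 14.8% of all genes that fell and 9.94% that rose, so that the share of members was below that of all genes. The 8 were Ndufa4, Ndufs5, Ndufa10, Ndufv1, Sdha, Cox5b, Atp5b and Atp5a1. Ndufa4 was at 12.2 and 13.8 CPM in Scramble-sgRNA and 4.52 and 4.07 CPM in Cdx2-sgRNA libraries (log2 fold change −1.60, SE 0.247, adjusted p = 0.00104). Ndufs5 was lower by the test (−0.87 on the log2 scale, SE 0.291, adjusted p = 0.0492), a call lost in 9 of 12 alternatives. Sdha went from 139 and 124 CPM to 79.7 and 67.7 CPM (log2 fold change −0.84, SE 0.182, adjusted p = 0.00706), a call lost without the first Scramble-sgRNA or the second Cdx2-sgRNA replicate. The count of 9 called members, mt-Co2 included, became 3 without the first or 4 without the second Scramble-sgRNA replicate and 3 without the second Cdx2-sgRNA replicate.

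In distal organoids in WENR-minus, 25 of 77 nuclear members fell and 0 rose, against 5.25% of all genes that fell and 4.51% that rose, and all 77 had a negative estimate (median −0.63). The 25 comprised 14 of 36 in complex I (median −0.636), 0 of 4 in complex II, 1 of 8 in complex III, 4 of 12 in complex IV (median −0.672) and 6 of 17 in complex V (median −0.595). Ndufa4 was again lowest, at 8.85 and 8.74 CPM against 2.54 and 2.76 CPM (log2 fold change −1.73, SE 0.257, adjusted p = 0.00437). Atp5g1 was at 55.6 and 41.6 CPM against 19.5 and 17.6 CPM (log2 fold change −1.39, SE 0.338, adjusted p = 0.0274). Ndufs8, an iron-sulfur subunit of complex I, was at 23.1 and 38.7 CPM against 12.5 and 13.1 CPM (log2 fold change −1.27, SE 0.227, adjusted p = 0.00863). In all of these the groups were separate, but the count rested on each library, being 12 and 2 without the first and the second Scramble-sgRNA replicate and 5 and 4 without the first and the second Cdx2-sgRNA replicate. The Atp5g1 call was lost without any 1 of them and that of Ndufs8 without any but the first Scramble-sgRNA replicate. Of the 25, 24 were also among the 60 that fell in proximal organoids (96.0% of the distal and 40.0% of the proximal list), the exception being Ndufc2, where 60 of all 77 tested had fallen in proximal organoids. Summed colonocyte markers here were at 6138 to 9679 CPM in Scramble-sgRNA and 13482 to 13773 CPM in Cdx2-sgRNA libraries. Of the 5 markers, Fabp2 (means 24.3 and 2.61 CPM) and Slc26a3 (1498 and 1178 CPM) went the other way. Between the same libraries the nuclear sum was lower with the Cdx2-sgRNA (means 9845 and 6525 CPM) and the mitochondrial sum higher (27638 and 38588 CPM). Summed goblet cell markers were at 4341 to 8098 CPM and 4853 to 12797 CPM, with overlap. Proliferation markers were lower with the Cdx2-sgRNA without overlap, at 363 to 526 CPM and 199.95 to 288 CPM, as were summed stem cell markers, at 139 to 163.5 CPM and 92.1 to 97.5 CPM. The stem cell sum was mostly Ephb2 (means 125 and 69.3 CPM). Axin2 was not lower (23.3 and 24.1 CPM), and Lgr5 (2.75 and 1.39 CPM) and Ascl2 (0.589 and 0.0418 CPM) were lower at few CPM. The part of any of these in the result was not tested.

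In distal organoids in WENR-plus 0 nuclear and 0 mitochondrial members passed the edgeR test, and 0 did with DESeq2. At an unadjusted p under 0.05 the counts were 1 and 0, against 6.36% of all genes. All genes gave few calls here as well, 0.137% higher and 0.124% lower, and the median of the nuclear members was −0.07.

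Of the mitochondrial members, 2 of 13 fell and 1 rose in the proximal WENR-minus comparison, with a median log2 fold change of −0.11, counts near the shares of all genes (18.3% lower and 12.7% higher). mt-Co1 was at 11205 and 9373 CPM in Scramble-sgRNA and 9191 and 7020 CPM in Cdx2-sgRNA libraries. mt-Atp6 (chrM:7927-8607), a subunit of the proton channel of ATP synthase, was at 174 and 131 CPM against 26.3 and 52.5 CPM (log2 fold change −1.95, SE 0.548, adjusted p = 0.0196). mt-Co3 (chrM:8607-9390), a core subunit of complex IV, was at 1468 and 1336 CPM against 716 and 522 CPM (log2 fold change −1.18, SE 0.263, adjusted p = 0.0061). mt-Co2 (chrM:7013-7696), which takes electrons from cytochrome c, was higher, at 146 and 185 CPM against 285 and 269 CPM (log2 fold change 0.74, SE 0.258, adjusted p = 0.0488). With the counts of the nuclear copies added, mt-Co2 was at 1123 and 889 CPM against 755 and 1091 CPM and its estimate changed sign (−0.13), and mt-Atp6 did not pass (log2 fold change −0.43, adjusted p = 0.41). mt-Co3 passed on both scales (−0.98, adjusted p = 0.0116 with copies), and mt-Nd3 passed with copies added (−0.85, adjusted p = 0.00699) but not with its own counts (−0.77, adjusted p = 0.218). From own counts the mt-Co2 call was lost without any 1 of the 4 libraries, that of mt-Atp6 without the first replicate of either group, and that of mt-Co3 without the second Cdx2-sgRNA replicate. In proximal WENR-plus, 0 of the 13 fell and 1 rose (all genes 14.8% and 9.94%). This was mt-Co2, at 169 and 123 CPM against 552 and 534 CPM (log2 fold change 1.89, SE 0.265, adjusted p = 0.000578), which did not pass with copies added (0.32, adjusted p = 0.554). In distal WENR-minus 0 of 13 passed with edgeR (0 at an unadjusted p under 0.05, against 26.1% of all genes, and 0 with DESeq2), though 12 of 13 estimates were positive (median 0.50), and all genes gave 4.51% higher and 5.25% lower.

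**Figure D3:**
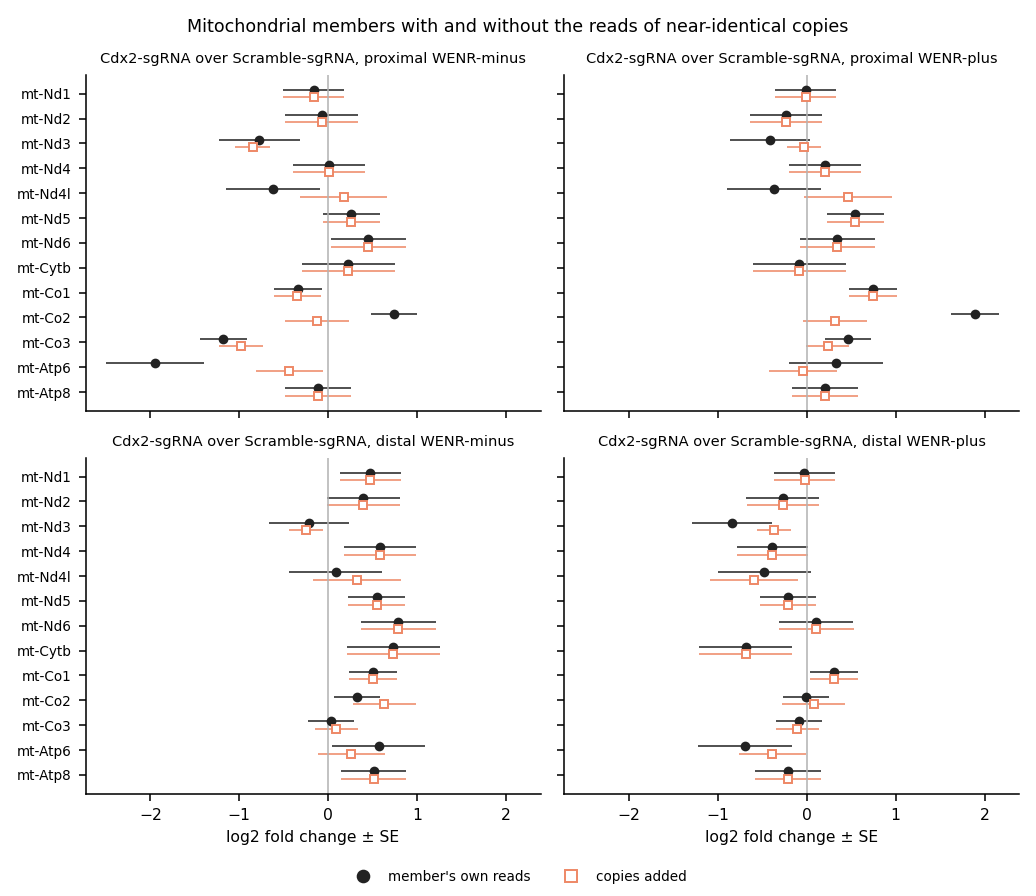
Log2 fold change ± SE of the 13 mitochondrial members, Cdx2-sgRNA over Scramble-sgRNA, in the 4 combinations of region and medium, from each gene's own counts and with the counts of near-identical nuclear copies added. For mt-Co2 in proximal WENR-plus the value drops from 1.89 to 0.32 when copies are added, and for mt-Co1 both values nearly coincide.

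Summed over members, nuclear transcripts fell from 7742 ± 577 CPM (SD, n = 2) in proximal Scramble-sgRNA organoids in WENR-minus to 3838 ± 64.4 CPM in Cdx2-sgRNA organoids, a ratio of 0.496, whereas mitochondrial transcripts went from 18216 ± 3241 to 15260 ± 438 CPM, a ratio of 0.838. The quotient of mitochondrial to nuclear counts was 2.34 ± 0.244 and 3.98 ± 0.181, or 1.70 times higher with the Cdx2-sgRNA, and 1.63 times with the counts of copies added. In proximal WENR-plus the quotient was 2.19 ± 0.567 and 3.71 ± 0.508, and in distal WENR-minus 2.81 ± 0.333 and 5.91 ± 1.52. In these 3 comparisons both Cdx2-sgRNA libraries lay above both Scramble-sgRNA libraries, but in distal WENR-plus (3.79 ± 1.63 and 4.05 ± 0.303) the groups overlapped. mt-Co1 alone made up 45.1 to 70.7% of the mitochondrial sum. An exact two-sided permutation test of 2 libraries against 2 cannot go below p = 0.333, so these sums are given without a test.

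**Figure D4:**
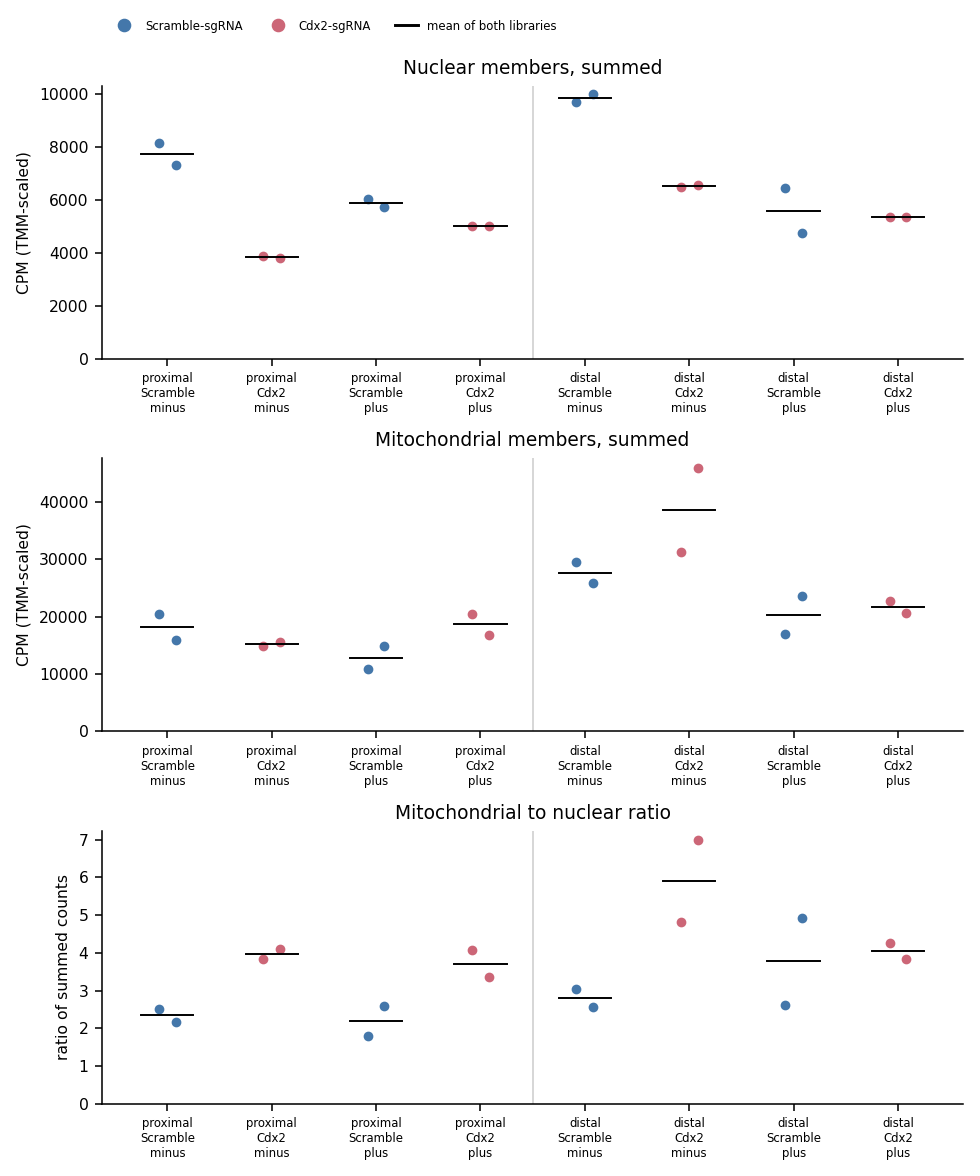
Summed CPM of the nuclear members, summed CPM of the mitochondrial members and their quotient in each of the 16 libraries, by group, where each point is a library and the bar is the mean of 2. The nuclear sum is lowest in proximal Cdx2-sgRNA WENR-minus (3838 CPM on average) and highest in distal Scramble-sgRNA WENR-minus (9845 CPM), and the quotient is highest in distal Cdx2-sgRNA WENR-minus (5.91).

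Growth factors in the medium were compared next, as WENR-plus over WENR-minus in each combination of region and guide. The reported fit had no term for the culture. A second fit with each culture as a block, added after seeing the data, is given where a count moved by over 1.5 times. In distal Scramble-sgRNA organoids the nuclear members were lower in WENR-plus: 50 of 77 fell and 0 rose (median −0.74), against 20.3% of all genes that fell and 20.2% that rose. The decreases covered 17 of 36 in complex I (median −0.498), 4 of 4 in complex II (−0.981), 7 of 8 in complex III (−0.738), 11 of 12 in complex IV (−1.03) and 11 of 17 in complex V (−0.761). Uqcrb, which binds near the ubiquinone site of complex III, was at 276 and 217 CPM in WENR-minus and 107 and 59.6 CPM in WENR-plus (log2 fold change −1.56, SE 0.299, adjusted p = 0.00172). Uqcrfs1, the Rieske iron-sulfur protein, was at 356 and 404 CPM against 172 and 118 CPM (log2 fold change −1.39, SE 0.285, adjusted p = 0.00257). Cox7a1 was at 17.4 and 11.8 CPM against 3.70 and 1.398 CPM (log2 fold change −2.51, SE 0.507, adjusted p = 0.00235). For all 3 the media were separate, and the count became 33 without the second replicate in either medium. Between the same libraries summed colonocyte markers were at 6138 to 9679 CPM in WENR-minus and at 231 to 375 CPM in WENR-plus. Goblet cell markers were at 4341 to 8098 and 447 to 806 CPM, and proliferation markers at 363 to 526 and 1292 to 1495 CPM. Their part in the result was not tested. Of the mitochondrial members 0 of 13 passed with edgeR (1 at an unadjusted p under 0.05, against 48.9% of all genes, and 1 with DESeq2, against 39.4%).

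In proximal Scramble-sgRNA organoids the same direction was seen in fewer genes, with 11 of 77 nuclear members lower and 0 higher in WENR-plus (median −0.32), a share near the 16.4% of all genes that fell (12.9% rose). Cox5a, a matrix-side subunit of complex IV, was at 62.5 and 56.2 CPM in WENR-minus and 34.7 and 28.2 CPM in WENR-plus (log2 fold change −0.92, SE 0.25, adjusted p = 0.0183). Uqcrq was at 130 and 125 CPM against 70.2 and 69.9 CPM (log2 fold change −0.87, SE 0.255, adjusted p = 0.0256). mt-Co3 was the mitochondrial member that fell, from 1468 and 1336 CPM to 458 and 775 CPM (log2 fold change −1.19, SE 0.263, adjusted p = 0.00671). With copies added the estimate was −0.85 (adjusted p = 0.0233), with mt-Nd3 passing too (−0.64, adjusted p = 0.0285). With each culture as a block the 12 calls became 27, all lower, while the share of all genes called in either direction became 41.9%. The 12 calls became 3 without the first WENR-minus replicate and 5 or 4 without the first or second WENR-plus replicate. The first and the third of these omissions lost the Cox5a call, and all 3 lost that of Uqcrq.

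The proximal Cdx2-sgRNA organoids moved the other way. There 20 of 77 nuclear members were higher in WENR-plus and 0 lower (median 0.43), against 5.17% of all genes that rose and 8.33% that fell, with 7 in complex I, 1 in complex II, 3 in complex III, 5 in complex IV and 4 in complex V. Uqcrh, the hinge protein of complex III, was at 42.5 and 36.4 CPM in WENR-minus and 82.4 and 89.4 CPM in WENR-plus (log2 fold change 1.12, SE 0.167, adjusted p = 0.00286). Cox7a2l was at 68.7 and 66.3 CPM against 118 and 169 CPM (log2 fold change 1.09, SE 0.202, adjusted p = 0.00684). Cox4i1 was at 84.9 and 71.2 CPM against 125 and 131 CPM (log2 fold change 0.71, SE 0.15, adjusted p = 0.0117). The media did not overlap for any of these. mt-Co2 was the mitochondrial member that rose (log2 fold change 0.97, SE 0.259, adjusted p = 0.0312). With copies added it did not pass (0.23, adjusted p = 0.741), nor from its own counts without any 1 of the 4 libraries. The Cox7a2l call was lost without the second WENR-plus replicate. With each culture as a block they became 32, all higher, and the share of all genes 26.4%. The 21 calls became 8 and 1 without the first and second WENR-plus replicate and 11 and 9 without the first and second WENR-minus replicate, and 0 when the 4 libraries were fitted alone. Summed colonocyte markers were at 18.2 to 28.1 CPM in WENR-minus and 26.8 to 32.1 CPM in WENR-plus here, whereas in proximal Scramble-sgRNA organoids they went from 6089 to 8962 CPM down to 163 to 224 CPM. Their part in the result was not tested.

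In distal Cdx2-sgRNA organoids 7 of 77 nuclear members rose and 16 fell in WENR-plus (median −0.25), against 24.0% of all genes that rose and 23.0% that fell. The share of members that fell was thus near that of all genes, and the share that rose below it. Ndufa4 rose from 2.54 and 2.76 CPM to 6.53 and 5.82 CPM (log2 fold change 1.22, SE 0.256, adjusted p = 0.00219). Atp5s, coupling factor B of ATP synthase, rose by 1.02 on the log2 scale (SE 0.299, adjusted p = 0.0152) and Ndufs6 by 0.65 (SE 0.218, adjusted p = 0.0286). The rises were 6 in complex I and 1 in complex V, and the decreases 3 in complex I, 3 in complex II, 1 in complex III, 7 in complex IV and 2 in complex V. Uqcrb went from 162 and 179 CPM to 79.7 and 70.8 CPM (log2 fold change −1.18, SE 0.296, adjusted p = 0.0065). Cox5a went from 47.6 and 59.0 CPM to 27.6 and 25.9 CPM (−0.995, SE 0.252, adjusted p = 0.00682) and Ndufa1 from 6.94 and 11.2 CPM to 2.52 and 4.44 CPM (−1.38, SE 0.467, adjusted p = 0.0302). All 13 mitochondrial estimates were negative, and mt-Co1 passed, from 22127 and 29053 CPM to 15011 and 12890 CPM (−0.88, SE 0.272, adjusted p = 0.0202). With copies added mt-Atp6 (−1.06) and mt-Co3 (−0.85) passed too. The nuclear sum depended on the scale here, at 6525 ± 63.1 CPM in WENR-minus and 5350 ± 9.62 CPM in WENR-plus (ratio 0.820) but at 10660 ± 664 and 13028 ± 563 TPM (ratio 1.22). The media were separate on both scales (n = 2 each). Summed colonocyte markers were at 13482 to 13773 CPM in WENR-minus and 396 to 599 CPM in WENR-plus, and goblet cell markers at 4853 to 12797 and 408 to 1889 CPM. Proliferation markers were at 199.95 to 288 and 1052 to 1456 CPM. Their part in the result was not tested. The 24 calls became 12 without the first or second WENR-plus replicate and 10 without the second WENR-minus replicate. The last omission lost the calls of Ndufs6, Ndufa1 and mt-Co1, the first those of Ndufs6 and Ndufa1 and the second those of Atp5s, Ndufs6 and mt-Co1, and that of Atp5s was also lost without the first WENR-minus replicate.

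**Figure D5:**
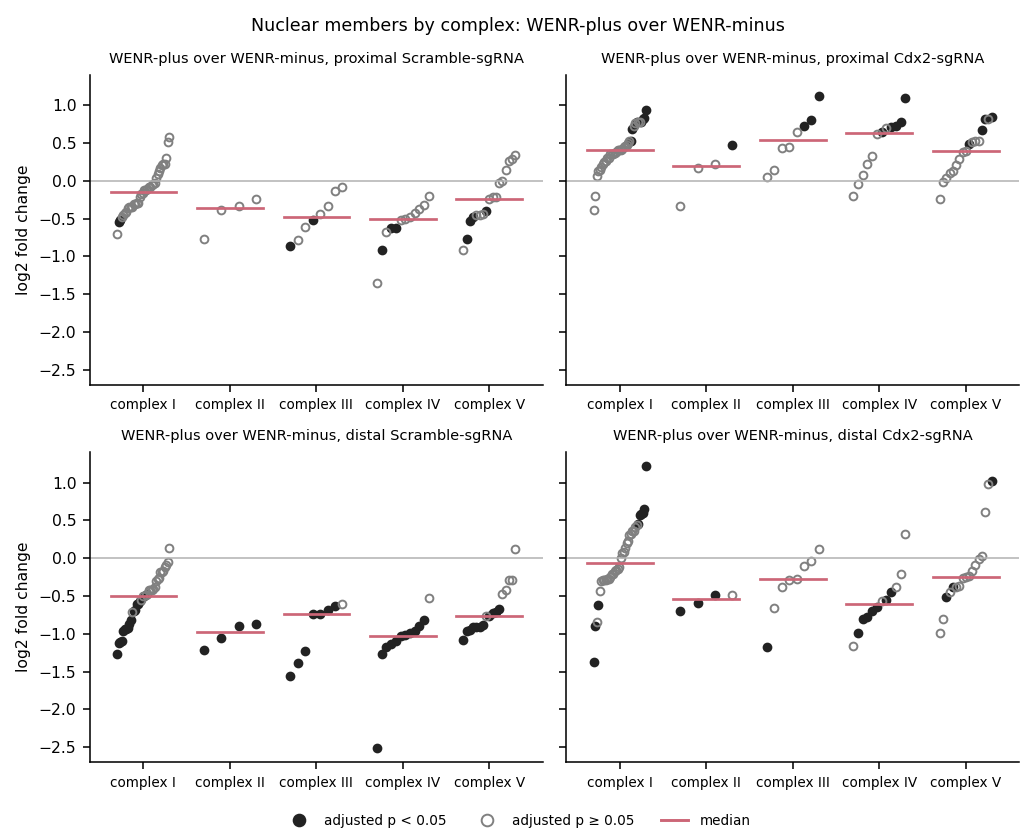
Log2 fold change of each tested nuclear member, WENR-plus over WENR-minus, by complex (I to V on the x axis) in the 4 combinations of region and guide, where each point is a gene, filled if its adjusted p was under 0.05, and each line the median of a complex. The median lies at −0.74 in distal Scramble-sgRNA, −0.32 in proximal Scramble-sgRNA, −0.25 in distal Cdx2-sgRNA and 0.43 in proximal Cdx2-sgRNA organoids.

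Whether these effects differed was tested as interaction terms in the same edgeR fit. The WENR-plus effect in proximal organoids was more positive with the Cdx2-sgRNA than with the Scramble-sgRNA for 15 of 77 nuclear members and 1 of 13 mitochondrial members, and for 0 more negative, against 4.38% of all genes called in either direction. The largest among called members above 5 CPM were mt-Co3 (difference of log2 fold changes 1.64, SE 0.37, adjusted p = 0.0369), Cox4i1 (1.34, SE 0.211, adjusted p = 0.0147) and Cox7a2l (1.29, SE 0.283, adjusted p = 0.0348). With copies added mt-Co3 did not pass (1.21, adjusted p = 0.0703). With each culture as a block the 16 calls became 38, all more positive, and the share of all genes 16.6%. These 16 calls became 0 without the first and 1 without the second proximal Scramble-sgRNA WENR-plus replicate, 1 without the first Scramble-sgRNA WENR-minus replicate, 5 and 1 without the first and second Cdx2-sgRNA WENR-plus replicate, 1 without the second Cdx2-sgRNA WENR-minus replicate, and 1 when the proximal libraries were fitted alone. In distal organoids the same difference passed for 0 members with edgeR (0.0% of all genes), with 74 of 77 nuclear estimates positive. At an unadjusted p under 0.05 it passed for 28 nuclear members, against 9.53% of all genes, with DESeq2 for 4 members, against 1.77%, and with each culture as a block for 1 member, Atp5g1, against 0.327%. The WENR-plus effect in Scramble-sgRNA organoids differed between proximal and distal for 0 members with edgeR (0.0719% of all genes). The median difference of the nuclear members was 0.467, against −0.061 for all genes. At an unadjusted p under 0.05 the count was 12 nuclear members, against 9.83% of all genes, and with DESeq2 1 member, against 2.16%.

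The Cdx2-sgRNA effect in WENR-minus was more negative in proximal than in distal organoids for 2 nuclear and 2 mitochondrial members, against 17.2% of all genes called in either direction. The 4 were Cox4i1 (difference −0.75, SE 0.211, adjusted p = 0.0325), Ndufb9 (−0.73, adjusted p = 0.0497), mt-Atp6 (−2.52, SE 0.758, adjusted p = 0.0422) and mt-Co3 (−1.21, SE 0.369, adjusted p = 0.0433). They became 0 without the first replicate of either Scramble-sgRNA group, 2 without the first distal Cdx2-sgRNA replicate and 1 without the second replicate of any of the 4 groups, and with copies added neither mt-Atp6 (−0.69, adjusted p = 0.407) nor mt-Co3 (−1.07, adjusted p = 0.0552) passed. In WENR-plus the difference passed for mt-Co2 alone (1.90, SE 0.366, adjusted p = 0.0122; 5.7% of all genes), and with copies added for 0 members (mt-Co2 0.24, adjusted p = 0.837). That call was lost without the second replicate of either Scramble-sgRNA group or the first distal Cdx2-sgRNA replicate, and the count became 2 without the first proximal Cdx2-sgRNA or the first distal Scramble-sgRNA replicate.

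Proximal and distal organoids were compared within each guide and medium. With the Scramble-sgRNA in WENR-minus, 3 of 77 nuclear members were lower in proximal organoids and 0 higher, against 5.74% of all genes lower and 4.21% higher. Cox7a1 was at 4.96 and 2.66 CPM in proximal and 17.4 and 11.8 CPM in distal libraries (log2 fold change −1.94, SE 0.495, adjusted p = 0.0309). Uqcrfs1 was at 200 and 183 CPM against 356 and 404 CPM (−0.99, SE 0.282, adjusted p = 0.0491), and Sdhc, a membrane anchor of complex II, was lower as well (−0.77 on the log2 scale, SE 0.141, adjusted p = 0.00764). mt-Co2 was at 146 and 185 CPM in proximal and 410 and 371 CPM in distal libraries (−1.24, SE 0.261, adjusted p = 0.0138). With copies added it did not pass (−0.33, adjusted p = 0.607). These 4 calls became 2 without the first and 0 without the second replicate of either group. In WENR-plus 0 nuclear members passed with edgeR (1 at an unadjusted p under 0.05, against 14.2% of all genes, and 0 with DESeq2; 1.39% of all genes lower and 0.733% higher). mt-Co2 was lower (−1.16, SE 0.26, adjusted p = 0.0462), a call lost without any of the 4 libraries and with copies added (−0.37, adjusted p = 0.722).

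With the Cdx2-sgRNA in WENR-minus, 40 of 77 nuclear and 5 of 13 mitochondrial members were lower in proximal organoids and 0 higher (nuclear median −0.59), against 24.4% of all genes lower and 24.6% higher. The nuclear calls covered 12 of 36 in complex I, 4 of 4 in complex II, 6 of 8 in complex III, 10 of 12 in complex IV and 8 of 17 in complex V. Cox7a1 was at 0.594 and 1.38 CPM in proximal and 10.5 and 7.03 CPM in distal libraries (log2 fold change −3.11, SE 0.541, adjusted p = 0.000749), and Ndufa1, needed for assembly of complex I, at 1.78 and 2.91 CPM against 6.94 and 11.2 CPM (−1.94, SE 0.48, adjusted p = 0.00624). mt-Co1 was at 9191 and 7020 CPM in proximal and 22127 and 29053 CPM in distal libraries (−1.66, SE 0.277, adjusted p = 0.000576), and mt-Nd6, the member encoded on the other strand of the mitochondrial genome, was also lower (−1.17, SE 0.424, adjusted p = 0.04). The mt-Nd6 call was lost without either proximal replicate, without the second distal replicate (−0.49, adjusted p = 0.4) and with these 4 libraries fitted alone. mt-Co3 (−1.397, adjusted p = 0.00128) and mt-Co2 (−0.82, adjusted p = 0.0213) also passed with copies added (−1.42 and −1.09), but the mt-Co2 call from its own counts was lost without either proximal replicate and without the second distal replicate (−0.54, adjusted p = 0.158). mt-Atp6 passed with its own counts (−2.62, adjusted p = 0.00271) but not with copies added (−0.93, adjusted p = 0.0634). Summed colonocyte markers were at 18.2 to 28.1 CPM in the proximal and 13482 to 13773 CPM in the distal libraries of this comparison, and goblet cell markers at 44.3 to 47.8 and 4853 to 12797 CPM. Their part here was not tested. The median of all genes tested here was 0.132 with TMM and 0.0 with DESeq2 scaling, and in the distal Scramble-sgRNA medium comparison 0.106 and 0.0, so that relative to the median gene these decreases are somewhat larger. The size of the regional difference depended on the scale. The nuclear sum in proximal over distal Cdx2-sgRNA organoids in WENR-minus was 0.588 from CPM but 0.871 from TPM, with the groups separate on both. As a share of all counts the nuclear members took 0.420 and 0.426% in these proximal and 0.4515 and 0.428% in the distal libraries. In WENR-plus 2 nuclear members were higher in proximal organoids and 5 lower, against 11.2% and 18.1% of all genes. Uqcrh was higher, at 82.4 and 89.4 CPM against 50.5 and 56.5 CPM (0.68, SE 0.165, adjusted p = 0.0107), as was Atp5e (0.54, SE 0.154, adjusted p = 0.0224). Sdha was lower, at 79.7 and 67.7 CPM against 121 and 142 CPM (−0.83, SE 0.182, adjusted p = 0.00641). These 7 calls became 0 without the second proximal replicate, and 2 and 4 without the first and second distal replicate.

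Over the 12 comparisons between groups, 9 nuclear members passed in none (Ndufa3, Ndufa13, Ndufb3, Ndufb4, Ndufb6, Ndufb7, Atp5g2, Atp5j and Atp5k), as did 8 of the 13 mitochondrial members. For Ndufb4 and Atp5g2 this holds for their own counts, without those given to Ndufb4c and Gm10175. In proximal WENR-minus, 21 of 30 tested members with any of the 3 letter strings were lower with the Cdx2-sgRNA (median −0.90) and 26 of 33 without (median −0.96), against 18.3% of all genes that fell.

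Other genes of the pathway were counted by list. In proximal WENR-minus, 20 of 49 assembly factors were lower with the Cdx2-sgRNA and 0 higher (median −0.58), with Cox10, which makes heme for complex IV, at a log2 fold change of −1.63 (adjusted p = 0.000658) and Atpaf2, a chaperone of ATP synthase, at −1.80 (adjusted p = 0.0381). Of 16 further subunits and electron carriers 11 were lower and 1 higher, with cytochrome c (Cycs) at −1.89 (adjusted p = 8.73e-05) and the sulfide oxidase Sqor at −2.03 (adjusted p = 0.000729). Of 19 genes of the tricarboxylic acid cycle 13 were lower and 1 higher (median −0.69), among them Suclg2 (−1.60). Among 13 regulators of mitochondrial biogenesis 6 were lower and 1 higher, including the coactivators Ppargc1b (−2.44, adjusted p = 9.8e-06) and Ppargc1a (−1.94, adjusted p = 0.0025). By contrast, 17 of 78 mitochondrial ribosomal proteins (median −0.27) and 5 of 26 genes of mitochondrial transcription and replication (median −0.14) were lower, near the 18.3% of all genes. In distal WENR-minus the same comparison gave 7 lower of 49 assembly factors, 4 of 16 subunits and carriers, 7 of 19 tricarboxylic acid cycle genes, 24 of 78 mitochondrial ribosomal proteins, 9 of 26 transcription and replication genes and 0 of 13 regulators, and 0 higher in each, against 5.25% of all genes lower and 4.51% higher.

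Under the medium comparison, in distal Scramble-sgRNA organoids 15 of 26 transcription and replication genes were higher in WENR-plus and 2 lower, among them Tfb1m (1.65, adjusted p = 0.000903) and Fastkd2 (1.56, adjusted p = 0.000472), against 20.2% of all genes higher and 20.3% lower. Of 78 mitochondrial ribosomal proteins 15 were higher and 5 lower, a share of increases near that of all genes, while 11 of 16 subunits and carriers were lower and 2 higher. In distal Cdx2-sgRNA organoids 18 of 26 transcription and replication genes and 47 of 78 mitochondrial ribosomal proteins were higher, with 2 and 3 lower, against 24.0% of all genes higher and 23.0% lower. Summed stem cell markers ran from 92.1 to 189 CPM in WENR-minus and from 310 to 546 CPM in WENR-plus, and their part in these differences was not tested.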

How the data were processed

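RNA was extracted (RNeasy), made into libraries (SMARTer Stranded Total RNA) and sequenced on a HiSeq. The authors quantified transcripts with Salmon 1.1.0 on a GENCODE annotation of mm10, imported them with tximport and tested them with DESeq2. They deposited, per library, estimated counts and TPM for 140748 transcripts. Here 139864 transcripts were assigned to genes with GENCODE vM21 (GRCm38), an earlier release than the authors' vM23, and the 884 without a match held 0.257 to 0.510% of the counts. Estimated counts were summed per gene and rounded to whole numbers. Genes passing filterByExpr (15289) were tested with edgeR 4.0.16 (R 4.3.3, limma 3.58.1), TMM scaling and the quasi-likelihood test in 1 fit of all 16 libraries, and genes with a Benjamini-Hochberg adjusted p under 0.05 were called, with no fold threshold. CPM used TMM library sizes. The test was tried on simulated data. Alternatives were DESeq2 1.42.0, other scalings and filters, each library left out, a block for the replicate number, a block for each culture (media only, 4 residual degrees of freedom) and counts of near-identical copies added, the last 2 chosen after seeing the data. Deviations of same-numbered libraries from their group means correlated across genes between the 2 media of a culture (r = 0.281 to 0.589, 4 pairs of groups), against −0.059 to 0.189 for the 24 other pairs of groups. The numbers were therefore taken to pair the media of a culture only, since the sources used here do not say that a number marks the same mouse in different cultures. Members and lists were chosen with earlier results of these data known. Named genes were Cdx2, the mitochondrial members, isoform sets, the 3 highest and 3 lowest called members above 5 CPM in each comparison and the extremes of TPM, and Sdhb, Cox4i1, Atp5b, Atp5j, Atp5k, Ndufb7, Ndufb9, Sdhc and further members named in lists of few calls were added after their values were seen. P-values measure the spread between 2 libraries per group, and their depth limits values below a few CPM.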

Additional observations from a re-analysis of the deposited data

Results flagged for a closer look

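The effect of the Cdx2-sgRNA on the members in WENR-minus differed between proximal and distal organoids, by an interaction test, for 4 members, among them mt-Atp6 (difference of log2 fold changes −2.516), mt-Co3 (−1.214) and Cox4i1 (−0.749), against 17.2% of all genes called in either direction. In WENR-plus it differed for 1 member, mt-Co2 (1.899), against 5.7% of all genes. The effect of WENR-plus in proximal organoids differed between Cdx2-sgRNA and Scramble-sgRNA for 16 members, among them mt-Co3 (1.641), Cox4i1 (1.34) and Cox7a2l (1.294), against 4.38% of all genes. Of these genes mt-Atp6, mt-Co2 and mt-Co3 share reads with copies on chromosome 1, and with the counts of the copies added none of their 4 differences passed the test (adjusted p = 0.407 for mt-Atp6, 0.0552 and 0.0703 for mt-Co3 and 0.837 for mt-Co2).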

How the results depend on the processing

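Over all alternatives, 171 values for counts, sums and the mitochondrial to nuclear quotient stayed near the reported one and 84 moved. For single members, 488 values kept their direction and call, 151 lost the call and 1 reversed, mt-Co2 in the proximal WENR-minus comparison of guides, at −0.126 with copies added. A block for the replicate number gave 64 called members in place of 63 in that comparison and moved the Cdx2-sgRNA WENR-plus comparison of regions from 7 to 11, and changed no other count by over 1.5 times. A block for each culture, which can be fitted for the media only and was added after seeing the data, gave 27 and 32 (media, proximal Scramble-sgRNA and Cdx2-sgRNA), 59 and 36 (distal) and 38 and 1 (medium effect between guides, proximal and distal). It kept the calls of the 3 highest and 3 lowest members and of the mitochondrial members named in each. With DESeq2 the counts moved to 21 (proximal Scramble-sgRNA, media), 15 and 2 (regions, Scramble-sgRNA in WENR-minus and WENR-plus), 9 and 2 (guide effect between regions in WENR-minus and WENR-plus), 34 and 4 (medium effect between guides, proximal and distal) and 1 (medium effect between regions). Without a filter they moved to 2 (guides, distal WENR-plus), 9 and 5 (regions, Scramble-sgRNA), 2 (guide effect between regions, WENR-plus), and 27, 3 and 1 (medium effects). RLE scaling gave 7 for the regions with Scramble-sgRNA in WENR-minus. Length-scaled counts gave 12 (proximal Cdx2-sgRNA, media), 0 (guide effect between regions, WENR-minus) and 7 (medium effect between guides, proximal). Library sizes without the mitochondrial genome gave 2 for the guide effect between regions in WENR-minus. Fitting only the libraries compared gave 41 (guides, proximal WENR-minus), 0 (media, proximal Cdx2-sgRNA), 0 and 4 (regions in WENR-plus, Scramble-sgRNA and Cdx2-sgRNA), 1 (guide effect between regions, WENR-minus) and 1 (medium effect between guides, proximal). Adding copies gave 0 (regions, Scramble-sgRNA WENR-plus), 2 and 0 (guide effect between regions in WENR-minus and WENR-plus). The nuclear sum with the Cdx2-sgRNA over that with the Scramble-sgRNA in proximal WENR-minus was 0.496 from counts and 0.557 from TPM, and for WENR-plus over WENR-minus in distal Cdx2-sgRNA organoids it turned from 0.820 to 1.22. Leaving out 1 library gave, for the guides, 41 to 58 and 3 to 6 (proximal WENR-minus and WENR-plus) and 2 to 12 (distal WENR-minus). For the media it gave 3 to 16 and 33 to 53 (Scramble-sgRNA, proximal and distal) and 1 to 11 and 10 to 22 (Cdx2-sgRNA). For the regions it gave 0 to 2 and 0 to 0 (Scramble-sgRNA, WENR-minus and WENR-plus) and 0 to 9 (Cdx2-sgRNA, WENR-plus). For the differences it gave 0 to 5 and 0 to 2 (guide effect between regions in WENR-minus and WENR-plus) and 0 to 16 (medium effect between guides, proximal). The cause of these moves was not tested.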
